A study of Homo sapiens with 28 samples.

Results

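The 10 genes described here encode the mitochondrial citrate carrier, ATP-citrate lyase and the isocitrate, aconitate and malate enzymes that link citrate to NADPH. They were SLC25A1, ACLY, IDH1, IDH2, ACO1, MDH1, ME1, ME2, PC and NNT, chosen by symbol for their place in this pathway, and all 10 were found by symbol among the 58278 genes of the count table. Of these, 9 passed the filter on low counts in tumors and in cultures, and NNT did not pass in either. All libraries described here came from HCT116, a human colorectal carcinoma cell line, which carried luciferase and GFP. The study used other cell lines in further experiments.

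The study asked how such cancer cells adapt to Palbociclib, an inhibitor of the cyclin-dependent kinases CDK4 and CDK6, to Telaglenastat, an inhibitor of glutaminase, and to both together. HCT116 cells were injected under the skin of young male NOD SCID mice, which lack functional T and B cells but keep other host cells such as fibroblasts and myeloid cells. Mice received vehicle (Control, 3 tumors), Palbociclib (5), Telaglenastat (4, spelled Telaglenestat in the labels) or Palbociclib+Telaglenestat (4, here the combination) by daily gavage. A further 12 libraries came from cell cultures made from excised tumors, 3 for each treatment, and grown afterwards without drug. The labels do not tie a culture to one of the sequenced tumors. Each label names a separate sample, so the p-values measure the spread between tumors or between derived lines.

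Citrate made in mitochondria leaves through SLC25A1, and ACLY splits it in the cytosol into acetyl-CoA, the building block of fatty acids and sterols, and oxaloacetate. MDH1 and ME1 pass that carbon on to malate and pyruvate, and ME1 yields NADPH. In the reverse direction, IDH1 and IDH2 can reduce alpha-ketoglutarate, which derives from glutamine, to isocitrate, and this route supplies citrate when mitochondrial oxidation is limited.

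Library totals ran from 6273834 to 13815675 counts, and levels below are counts per 1000000 of the scaled library size (CPM). Log2 fold changes are given with their standard error (SE), and the adjusted p comes from the quasi-likelihood test of edgeR, adjusted by Benjamini-Hochberg over all genes tested and read against 0.05. Of the 8 epithelial markers, EPCAM lay at 305 CPM or above in all 28 libraries. VIL1, on the same list, was at most 5.87 CPM in tumors and 8.56 CPM in cultures. It had a read in 7 of 16 tumors and 7 of 12 cultures, and was at 0 in all Telaglenastat tumors. Among the tumors, Palbociclib replicate 2 stood apart, with a chi-square of counts per degree of freedom of 13.8 to 19.5 against the other Palbociclib tumors, which had 4.66 to 11.02 among themselves. Other markers moved with treatment. The summed list of 7 fibroblast genes was 165.8 to 205.3 CPM in Control tumors, 118.3 to 203.9 under Palbociclib, 49.2 to 62.0 under Telaglenastat and 98.3 to 145.1 under the combination, while its defining genes DCN and LUM were at or near 0 (at most 0.283 CPM). The summed list of 6 leukocyte genes was 16.1 to 21.5 CPM in Control tumors, 23.9 to 33.7 CPM under Palbociclib, 3.50 to 10.3 CPM under Telaglenastat and 10.01 to 16.9 CPM under the combination, with PTPRC at 0.332 CPM or below. The list of 8 epithelial genes summed to 3038 to 3605 CPM in Control tumors, 3293 to 4632 CPM under Palbociclib, 1605 to 1834 CPM under Telaglenastat and 2418 to 2683 CPM under the combination. The counts are on human genes, and the sources used here name no step that set mouse reads apart. Mouse host cells thus show only as far as their reads map to human genes, so these sums do not measure the host share. The part of these markers in the results below was not tested.

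The counts also tracked the GC content of the transcripts differently in each treatment. The slope of log2 CPM, relative to the mean of all tumors, per SD of GC content (8.49 percentage points) was 0.253 ± 0.00639 (SD, n = 3) in Control tumors and 0.284 ± 0.106 (n = 5) under Palbociclib. It was -0.337 ± 0.0355 (n = 4) under Telaglenastat and -0.208 ± 0.0550 (n = 4) under the combination. Calls against Control are therefore also given after each library's trend on GC content and gene length was removed, called the corrected value. This correction sets the typical gene to 0, and it cannot tell a trend of library preparation from one of the treatment.

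Per kilobase of merged exons, the order of the members' median levels over the 28 libraries was ACLY (61.5 CPM per kilobase), MDH1 (49.8), ME1 (35.4), IDH1 (28.9), ACO1 (8.80), SLC25A1 (7.31), ME2 (6.66), IDH2 (5.59) and PC (0.507). ACLY exceeded MDH1 in 20 of 28 libraries, and ME1 exceeded IDH1 in 23. The order of ACO1, SLC25A1, ME2 and IDH2 was not stable, since each exceeded the next in 14 to 17 of the 28. PC, which turns pyruvate into oxaloacetate, stood below IDH2 in 28 of 28.

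NNT was almost unread. NNT, the mitochondrial transhydrogenase that makes NADPH from NADH, lies on chromosome 5 (GRCh38, 43602692 to 43707405, plus strand). It had 8 reads in the 28 libraries together, at most 2 in one library, and was at 0 in 23. A count of 3, the limit that a count of 0 allows, corresponds to 0.223 to 0.477 CPM, so lower levels were not detectable at this depth. The limit covers counting error only. Reads of the coding genes on either side were plentiful: PAIP1 had a median of 154.0 CPM and MRPS30 of 99.0 CPM, whereas FGF10, between NNT and MRPS30, had 2 reads in all. The antisense gene NNT-AS1, which shares 217 exon bases with NNT on the other strand, had 11 reads. No fold change was computed for NNT.

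**Figure D1:**
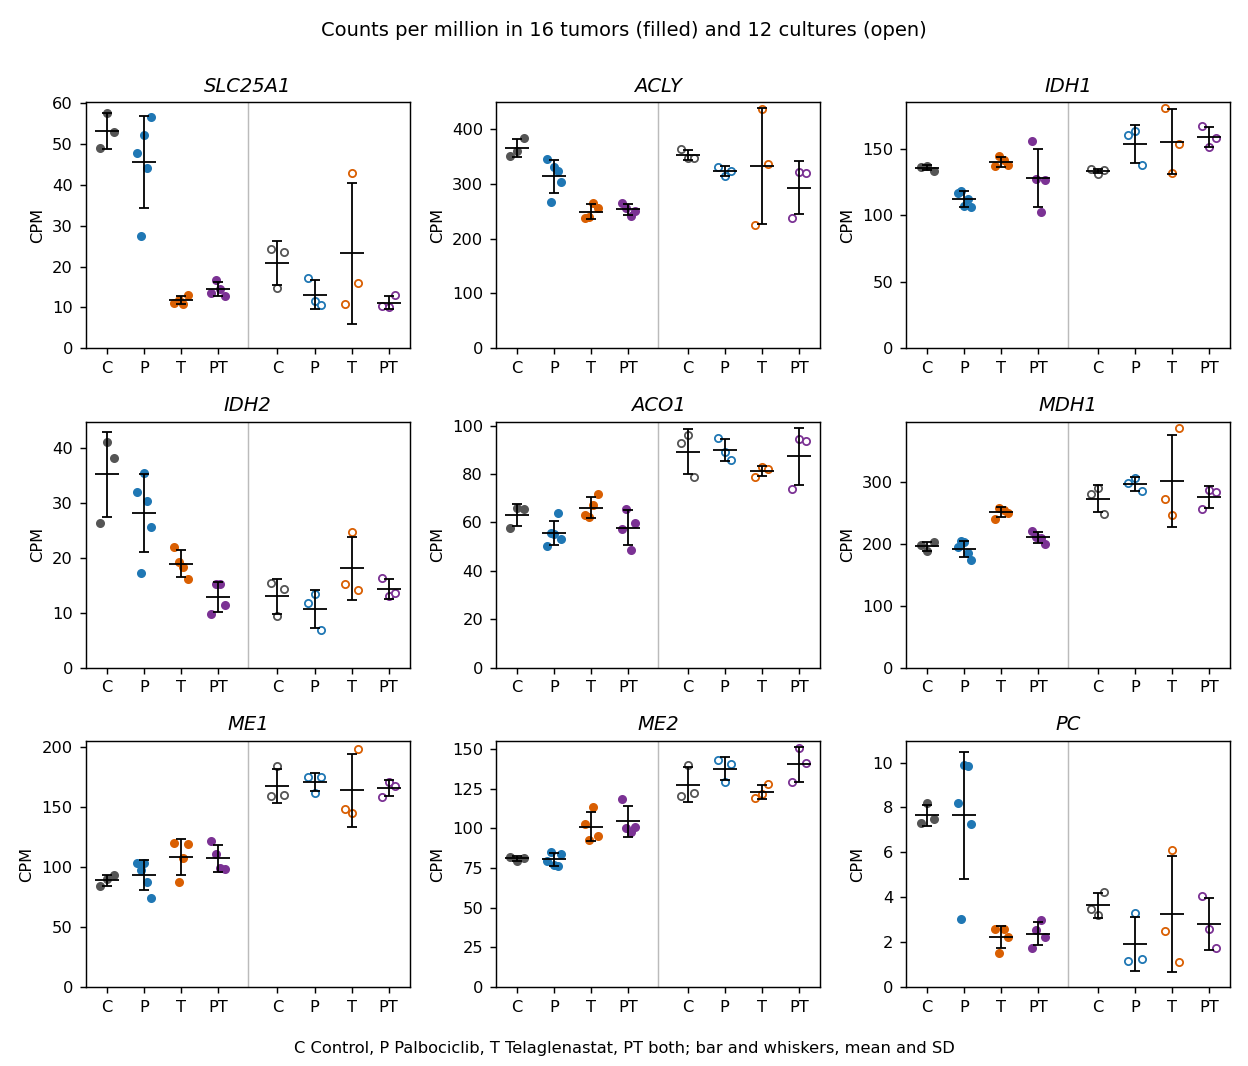
CPM (y axis, linear from 0) of the 9 tested members in each library. Filled points are tumors and open points cultures, with the mean and SD in black. SLC25A1, ACLY, IDH2 and PC lay below all Control tumors in every Telaglenastat and combination tumor.

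The genes of citrate export and cleavage were lower than Control in both groups given Telaglenastat, also past the threshold after the correction. For the combination against Palbociclib, the corrected fit kept the call of SLC25A1 and lost that of ACLY. SLC25A1, the carrier that moves citrate out of mitochondria, is on chromosome 22 (GRCh38, 19175575 to 19178830, minus strand). Its level was 49.0, 57.7 and 52.9 CPM in Control tumors, 47.9, 27.5, 52.2, 44.1 and 56.6 CPM in Palbociclib tumors, 11.1, 11.7, 10.9 and 13.1 CPM in Telaglenastat tumors and 13.5, 16.7, 14.6 and 12.8 CPM in combination tumors. All 8 tumors that had received Telaglenastat lay below every other tumor. The log2 fold change against Control was -2.18 (SE 0.18, adjusted p = 1.71e-08) for Telaglenastat, or 4.54-fold lower, and -1.88 (SE 0.17, adjusted p = 9.82e-08) for the combination. Corrected, the difference was smaller but still past the threshold, at -0.63 (SE 0.12, adjusted p = 0.00126) and -0.67 (SE 0.12, adjusted p = 3.71e-04). Against Palbociclib the combination gave -1.66 (SE 0.16, adjusted p = 1.14e-07), and corrected -0.35 (SE 0.11, adjusted p = 0.0371). With replicate number added to the corrected fit this was -0.32 (adjusted p = 0.108) and did not pass. SLC25A1 has the highest GC content of the members (65.6% in its longest transcript). It also has 5 named pseudogenes, with which the counting could have split or shared reads.

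ACLY, which cleaves exported citrate, is on chromosome 17 (GRCh38, 41866908 to 41930542, minus strand). Its level was 351, 360.5 and 384 CPM in Control tumors, 345, 266, 331, 324 and 303 CPM under Palbociclib, 237, 239, 265 and 256 CPM under Telaglenastat and 266, 257, 241 and 250.1 CPM under the combination. Telaglenastat and combination tumors did not overlap with Control tumors, and neither did the Palbociclib tumors. The log2 fold change was -0.55 (SE 0.08, adjusted p = 9.23e-06) for Telaglenastat and -0.53 (SE 0.08, adjusted p = 1.87e-05) for the combination, or 1.47-fold and 1.44-fold lower. Corrected, it was -0.26 (adjusted p = 0.0220) and -0.29 (adjusted p = 0.00750). Under Palbociclib it was -0.22 (SE 0.07, adjusted p = 0.0946), which did not pass, and corrected -0.22 (adjusted p = 0.0659). The combination against Palbociclib gave -0.31 (SE 0.07, adjusted p = 0.00123), and corrected -0.07 (SE 0.07, adjusted p = 0.578), which did not pass.

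SLC25A1 and ACLY were the members called lower than Control in both Telaglenastat-treated groups with and without the correction. MDH1 was the member called higher in Telaglenastat tumors in both fits. MDH1 did not rise under a correction that did not set the typical gene to 0 (-0.0162). The 250 bases before a RefSeq start site of each of these genes are shown side by side, from the RefSeq promoter windows of GRCh38.p14, 5′ to 3′ on the gene's strand, at chr22:19178737-19178986 (minus strand) for SLC25A1, chr17:41919023-41919272 (minus) for ACLY and chr2:63588713-63588962 (plus) for MDH1. Capitals mark matches on either strand to the GC box GGGCGG, bound by Sp1-type factors, and to the CCAAT box (CCAAT), bound by NF-Y. Overlapping matches were each counted. Each window is the one before the first RefSeq start listed for its gene. By the gene spans above, the ACLY and MDH1 windows lie inside the gene, which starts further upstream in that annotation, and the SLC25A1 window lies partly inside.
SLC25A1: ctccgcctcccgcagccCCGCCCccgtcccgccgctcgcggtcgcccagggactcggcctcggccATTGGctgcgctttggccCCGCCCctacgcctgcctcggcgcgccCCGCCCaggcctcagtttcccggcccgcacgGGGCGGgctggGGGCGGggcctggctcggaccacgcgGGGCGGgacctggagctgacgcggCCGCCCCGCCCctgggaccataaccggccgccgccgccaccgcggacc
ACLY: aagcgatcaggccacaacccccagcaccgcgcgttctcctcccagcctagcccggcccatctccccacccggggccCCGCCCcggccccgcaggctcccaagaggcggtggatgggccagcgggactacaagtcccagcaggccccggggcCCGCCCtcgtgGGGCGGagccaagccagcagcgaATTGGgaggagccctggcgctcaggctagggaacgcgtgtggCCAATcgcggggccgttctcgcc
MDH1: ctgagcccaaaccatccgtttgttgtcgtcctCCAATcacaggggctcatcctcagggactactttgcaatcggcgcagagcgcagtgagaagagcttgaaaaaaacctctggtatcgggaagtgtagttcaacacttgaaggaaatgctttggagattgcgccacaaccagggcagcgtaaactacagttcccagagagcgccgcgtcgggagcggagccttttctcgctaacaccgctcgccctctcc
The SLC25A1 window held 8 GC boxes and 1 CCAAT box, that of ACLY 3 and 2, and that of MDH1 0 and 1. A second window listed for ACLY held 4 and 2, and a second for MDH1 0 and 0. Of 35116 windows in the table, 42.6% held a GC box and 32% a CCAAT box. The sterol regulatory element in the form TCACNCCAC had no match in the 16 windows of the 10 members, against 0.883% of all windows. These matches describe the letters only. The GC content of these windows was 81.6% for SLC25A1, 73.6% for ACLY and 54.8% for MDH1. In the first window of the other tested members, ACO1 held 6 GC boxes (76.8% GC), ME2 3 (72.4%) and PC 2 (67.6%). ME1 held 1 (74%), IDH1 1 (56.8%) and IDH2 0 (48.4%). IDH2 fell and ME2 rose on the deposited counts, so the GC boxes did not order the members by direction.

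**Figure D2:**
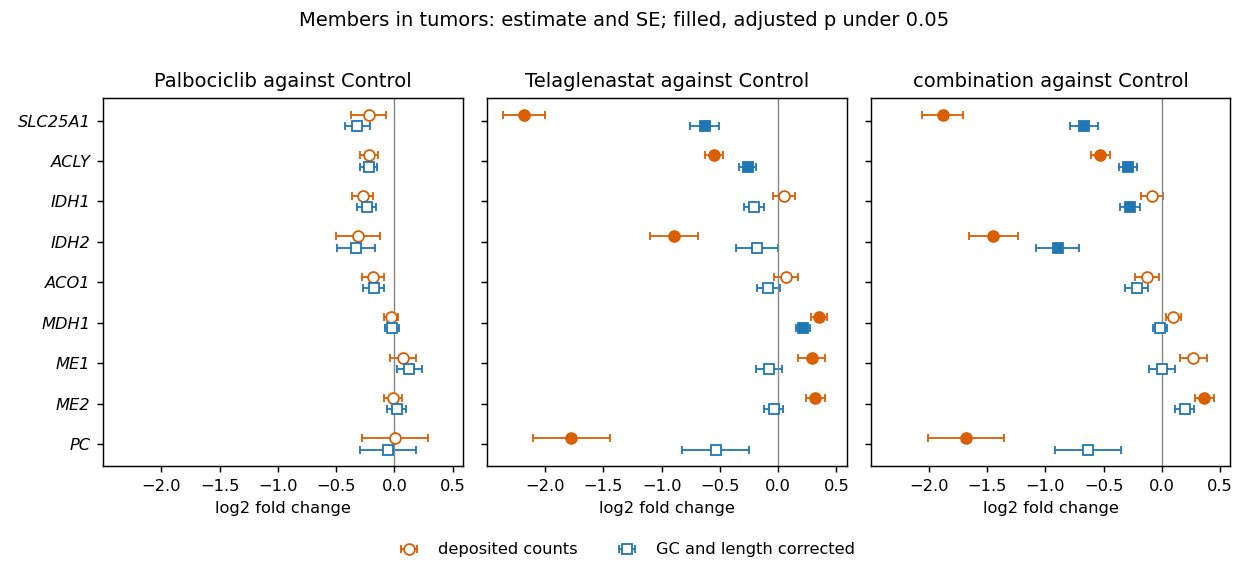
Log2 fold change (x axis) of each member against Control tumors with its SE, for Palbociclib, Telaglenastat and the combination. Circles are the deposited counts and squares the corrected values, filled where the adjusted p was under 0.05. Corrected, SLC25A1 and ACLY stayed filled under Telaglenastat and the combination.

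Of the reductive carboxylation enzymes, IDH2 was lower under both Telaglenastat treatments, and the calls of IDH1 and ACO1 were few. IDH2, the mitochondrial NADP-dependent isocitrate dehydrogenase, is on chromosome 15 (GRCh38, 90083045 to 90102504, minus strand). Its level was 26.4, 41.1 and 38.2 CPM in Control tumors, 32.0, 17.2, 35.5, 30.4 and 25.5 CPM under Palbociclib, 22.04, 19.2, 18.4 and 16.1 CPM under Telaglenastat and 9.69, 15.2, 15.2 and 11.5 CPM under the combination. All combination tumors lay below all Telaglenastat tumors, and these below all Control tumors. Against Control the log2 fold change was -0.89 (SE 0.21, adjusted p = 0.00119) for Telaglenastat and -1.45 (SE 0.21, adjusted p = 1.54e-05) for the combination. Corrected, the Telaglenastat difference was -0.18 (SE 0.18, adjusted p = 0.577) and no longer passed, whereas the combination kept -0.89 (SE 0.18, adjusted p = 0.00121). The combination against Telaglenastat gave -0.55 (SE 0.21, adjusted p = 0.0721) on the deposited counts and -0.71 (SE 0.18, adjusted p = 0.0108) corrected.

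IDH1, the cytosolic counterpart, is on chromosome 2 (GRCh38, 208236227 to 208266074, minus strand). Its level was 136, 137 and 133 CPM in Control tumors, 117, 118, 107, 112 and 106 CPM under Palbociclib, 137, 144, 141 and 138 CPM under Telaglenastat and 155, 127, 102 and 126 CPM under the combination. The lowest Telaglenastat tumor lay at the highest Control tumor, and all 5 Palbociclib tumors lay below the Control tumors. The Palbociclib difference was -0.27 (SE 0.09, adjusted p = 0.0779) and did not pass, nor did the corrected -0.24 (adjusted p = 0.0817). It passed under a stricter filter (adjusted p = 0.0468) and with the compared groups alone (0.0419). For Telaglenastat the log2 difference was 0.05, with a 95% interval of -0.14 to 0.23, and corrected -0.21 (adjusted p = 0.112). The combination gave -0.09 (adjusted p = 0.487), and corrected -0.27 (adjusted p = 0.0224), which passed. Without combination replicate 1, IDH1 was lower in the combination than under Telaglenastat (-0.23, adjusted p = 0.0404), and without combination replicate 3 it was higher than under Palbociclib (0.28, adjusted p = 0.00352). With all libraries the first did not pass in any fit run, and the second (0.19, adjusted p = 0.0716) passed as higher in 5 of 11 alternative fits, DESeq2 among them (0.23, adjusted p = 0.0209), whereas corrected it was -0.03 (adjusted p = 0.836).

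ACO1, the cytosolic aconitase that interconverts citrate and isocitrate and also binds iron-responsive RNA elements, is on chromosome 9 (GRCh38, 32384603 to 32454769, plus strand). It was called in none of the 5 tumor comparisons. Its level was 57.8, 65.9 and 65.7 CPM in Control tumors, 50.4, 55.5, 55.2, 63.8 and 53.1 CPM under Palbociclib, 63.2, 62.4, 67.1 and 71.7 CPM under Telaglenastat and 57.3, 65.7, 48.4 and 59.8 CPM under the combination, with all groups overlapping Control. The log2 difference for Telaglenastat was 0.07 (95% interval -0.13 to 0.26) and for the combination -0.13 (-0.32 to 0.07). Corrected, they were -0.08 (adjusted p = 0.648) and -0.22 (adjusted p = 0.107).

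On the deposited counts MDH1, ME1 and ME2 rose under Telaglenastat and PC fell, and of these calls only that of MDH1 was kept in the corrected fit. MDH1, the cytosolic malate dehydrogenase, is on chromosome 2 (GRCh38, 63588609 to 63607197, plus strand). Its level was 198, 189 and 203 CPM in Control tumors, 195, 205, 204, 185 and 175 CPM under Palbociclib, 241, 259, 256 and 250.02 CPM under Telaglenastat and 222, 211, 210.0 and 201 CPM under the combination. The 4 Telaglenastat tumors lay above all other tumors. The log2 fold change against Control was 0.35 (SE 0.07, adjusted p = 2.08e-04), and corrected 0.21 (SE 0.06, adjusted p = 0.0215). Under a correction that did not set the typical gene to 0 it was -0.0162 (adjusted p = 0.862). MDH1 was lower in the combination than under Telaglenastat (-0.25, SE 0.06, adjusted p = 0.00667), also corrected (-0.23, adjusted p = 0.00835), but not when all 28 libraries were fitted together (adjusted p = 0.0814). Against Palbociclib the combination difference of 0.13 (adjusted p = 0.0778) passed without Palbociclib replicate 2 (0.15, adjusted p = 0.0356) and, with all libraries, in 4 of 11 alternative fits, DESeq2 among them (0.17, adjusted p = 0.00669), and corrected it was 0.0029 (adjusted p = 0.982). Against Control the combination gave 0.10 (adjusted p = 0.245), which passed by DESeq2 alone (adjusted p = 0.0326) among the fits on deposited counts, and corrected -0.02 (adjusted p = 0.885). Its exons share 191 bases with WDPCP on the other strand, and the strand setting of the counting is not given in the sources used here.

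ME1, the cytosolic NADP-dependent malic enzyme, is on chromosome 6 (GRCh38, 83210389 to 83431071, minus strand). Its level was 83.9, 89.6 and 93.1 CPM in Control tumors, 103, 97.4, 103, 87.4 and 74.1 CPM under Palbociclib, 119, 87.6, 108 and 119 CPM under Telaglenastat and 122, 111, 98.7 and 97.7 CPM under the combination. Telaglenastat tumors overlapped with Control tumors, as 1 of 4 lay within their range. The log2 fold change of 0.29 (SE 0.12, adjusted p = 0.0469) was close to the threshold and missed it in 6 of 7 fits without 1 library (adjusted p up to 0.152), the exception being the fit without Telaglenastat replicate 2. The combination tumors lay above the Control tumors without overlap, at 0.27 (adjusted p = 0.0679). This difference passed in 7 of 11 alternative fits, DESeq2 among them (0.33, adjusted p = 0.0228). Corrected, the Telaglenastat value was -0.08 (adjusted p = 0.720) and the combination value 0.0016 (adjusted p = 0.995).

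ME2, the mitochondrial NAD-dependent malic enzyme, is on chromosome 18 (GRCh38, 50878734 to 50954257, plus strand) and has 1 named pseudogene. Its level was 82.2, 79.5 and 81.5 CPM in Control tumors, 79.7, 85.4, 76.99, 76.6 and 83.9 CPM under Palbociclib, 103, 92.9, 113 and 95.4 CPM under Telaglenastat and 119, 100.3, 97.8 and 101 CPM under the combination. All tumors that had received Telaglenastat lay above all others. The log2 fold change was 0.32 (SE 0.08, adjusted p = 0.00319) for Telaglenastat and 0.37 (SE 0.08, adjusted p = 0.00129) for the combination. Corrected, these were -0.04 (adjusted p = 0.823) and 0.20 (adjusted p = 0.0864), and neither passed.

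PC, the mitochondrial pyruvate carboxylase, is on chromosome 11 (GRCh38, 66848233 to 66958376, minus strand), and 621 of its exon bases overlap LRFN4 on the other strand. Its level was 7.30, 8.19 and 7.49 CPM in Control tumors, 8.22, 3.02, 9.88, 9.86 and 7.25 CPM under Palbociclib, 2.58, 1.53, 2.58 and 2.23 CPM under Telaglenastat and 1.75, 2.54, 2.98 and 2.23 CPM under the combination. Every tumor given Telaglenastat lay below the Control tumors. The log2 fold change was -1.78 (SE 0.33, adjusted p = 1.67e-04) for Telaglenastat and -1.68 (SE 0.33, adjusted p = 3.16e-04) for the combination. Corrected, it was -0.54 (SE 0.29, adjusted p = 0.243) and -0.63 (SE 0.28, adjusted p = 0.108), and the call was lost in both.

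**Figure D3:**
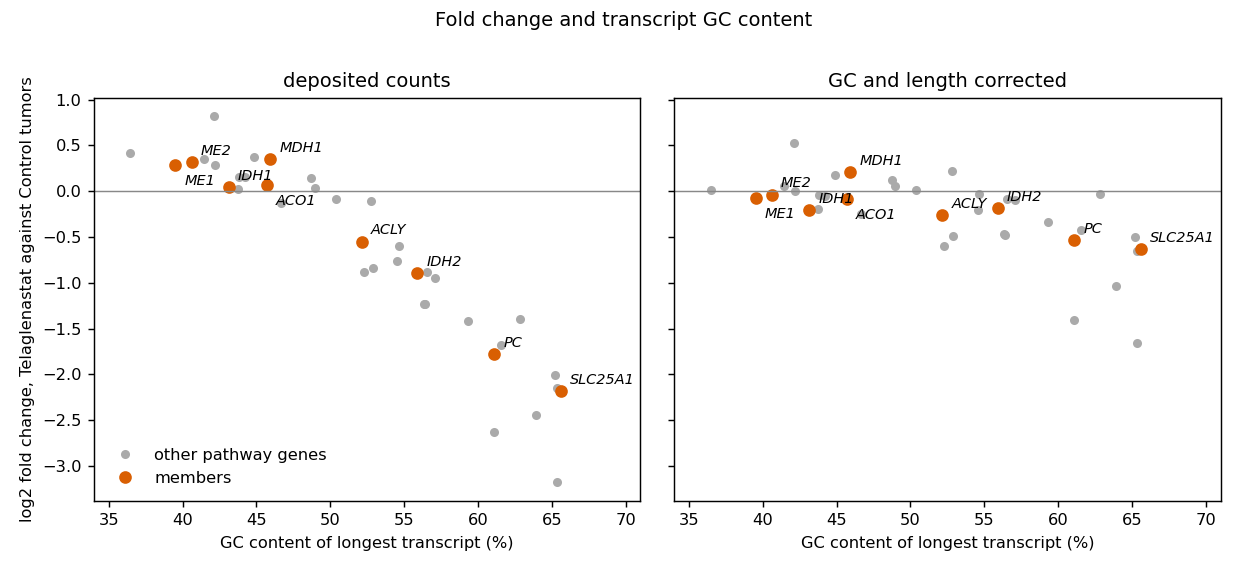
Log2 fold change of Telaglenastat against Control tumors (y axis) against the GC content of the longest transcript (x axis, %), on the deposited counts and corrected. Orange points are the 9 tested members and grey points the other pathway genes tested. On the deposited counts the 4 members above 52% GC lay below 0 and the other 5 above it, and corrected 8 of 9 lay below 0, MDH1 being the exception.

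Counted over the members, Palbociclib called none of 9 against Control, beside 6.16% of all genes tested (2.55% higher, 3.6% lower). IDH1 and ACLY, 2 of the 9, had an unadjusted p under 0.05, beside 2701 of all 14848 genes tested. DESeq2 also called 0 members, beside 1137 genes in all. Telaglenastat called 7 of 9 (3 higher, 4 lower), beside 51.1% of all genes, and the combination called 5 (1 higher, 4 lower), beside 44.5%. DESeq2 called 7 in each, beside 7740 and 6805 genes in all. It also called 7 for the combination against Palbociclib, beside 7362. The median log2 fold change of the members was 0.05 and -0.13, beside 0.03 and -0.04 over all genes tested, and corrected -0.18 and -0.27, beside 0.0117 and 0.00745. The combination against Palbociclib called 5 (1 higher, 4 lower) beside 47.6% (20.1% higher, 27.5% lower), and against Telaglenastat 1 (lower) beside 18.8% (8.93% higher, 9.89% lower). Corrected, the counts were 0, 3 (1 higher, 2 lower) and 4 (all lower) against Control, beside 7.66%, 14.9% and 26.4% of all genes. The first form of the correction, which left the median of all genes at -0.215 and -0.186, called 0 higher and 7 lower in both groups given Telaglenastat. Of all genes that form called 28.9% and 28.3% lower, and 2.86% and 6.28% higher. The 3 comparisons against Control share the same 3 tumors. Groups did not overlap for 2, 6 and 6 of the 9 members under Palbociclib, Telaglenastat and the combination, beside 13.8%, 53.8% and 47.3% of all genes. Combination and Palbociclib tumors did not overlap for 5 members, beside 34%, and combination and Telaglenastat tumors for 2, beside 21.3%.

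Of 32 other genes of the pathway, 29 were tested, ME3, SLC13A5 and ALDH1L1 being too low. Palbociclib called none of them, with 0 by DESeq2 and 5 at an unadjusted p under 0.05, beside 2701 of all 14848 genes. Telaglenastat called 16 lower and 3 higher, beside 28.5% lower and 22.6% higher of all genes. Among the 4 lowest were SLC25A10, the dicarboxylate carrier (-3.18, adjusted p = 2.08e-06), IDH3G, a subunit of NAD-dependent isocitrate dehydrogenase (-2.63, adjusted p = 4.11e-08), and FASN, the fatty acid synthase (-2.15, adjusted p = 2.07e-08). The genes called higher were ALDH1L2 (0.82), NADK2 (0.42), the mitochondrial NAD kinase, and SLC25A13 (0.38), an aspartate-glutamate carrier. Corrected, 9 were called, all lower, beside 8.49% lower and 6.43% higher of all genes. Among the 9 were SLC25A10 (-1.66), IDH3G (-1.40) and FASN (-0.65).

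Under the combination 16 of the 29 were lower and 1 was higher, beside 26.9% and 17.6% of all genes. FASN (-2.17, corrected -0.89), D2HGDH (-2.13, corrected -0.91 and not passing, adjusted p = 0.0510) and IDH3G (-2.05, corrected -1.07) were among the 4 with the lowest log2 fold changes. SLC25A13 was the gene called higher (0.39). Corrected, 12 were called, all lower, beside 13% lower and 13.4% higher of all genes. Under Palbociclib the corrected fit called 3, all lower, beside 4% lower and 3.66% higher. On the deposited counts the combination called 15 lower and 1 higher against Palbociclib, beside 27.5% and 20.1%. Against Telaglenastat it called 2 lower, beside 9.89% lower and 8.93% higher. In the 5 culture comparisons none was called, and 0 by DESeq2. At an unadjusted p under 0.05 there were 0 to 8, beside 277 to 1969 of all 13985 genes. Control cultures were higher than Control tumors for 12 and lower for 5, beside 22.8% and 23.1% of all genes.

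Within a library, the ratio of a cytosolic enzyme to its mitochondrial counterpart needs no scaling between libraries. A prior count of 2 was added to each. The log2 ratio of IDH1 to IDH2 counts was 1.962 ± 0.35 (SD, n = 3) in Control tumors, 2.03 ± 0.44 (n = 5) under Palbociclib, 2.88 ± 0.19 (n = 4) under Telaglenastat and 3.29 ± 0.53 (n = 4) under the combination. Both Telaglenastat-treated groups lay above Control without overlap. Corrected, the difference from Control was -0.03 for Telaglenastat and 0.62 for the combination, so only the second remained positive. No test was run on these ratios.

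The log2 ratio of MDH1 to MDH2, the mitochondrial malate dehydrogenase, was 0.12 ± 0.12 in Control tumors, 0.11 ± 0.21 under Palbociclib, 1.36 ± 0.08 under Telaglenastat and 0.92 ± 0.07 under the combination. Groups with Telaglenastat did not overlap with Control, and the corrected differences were 0.81 and 0.49. MDH2 itself averaged 181 CPM in Control tumors, 179 under Palbociclib, 98.2 under Telaglenastat and 111 under the combination. The higher ratio thus went with a lower MDH2 in both groups, and MDH1 was not called against Control under the combination. ME1 to ME2 stayed between -0.18 and 0.42 in all 16 tumors, and the treated groups overlapped with Control. In cultures the ratio of ME1 to ME2 lay below Control without overlap for Palbociclib (difference -0.0835) and the combination (-0.154), and that of MDH1 to MDH2 lay above it for Palbociclib (0.34). The MDH1 to MDH2 ratio was 0.73 to 1.20 in Control cultures and 0.85 to 1.01 in combination tumors.

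**Figure D4:**
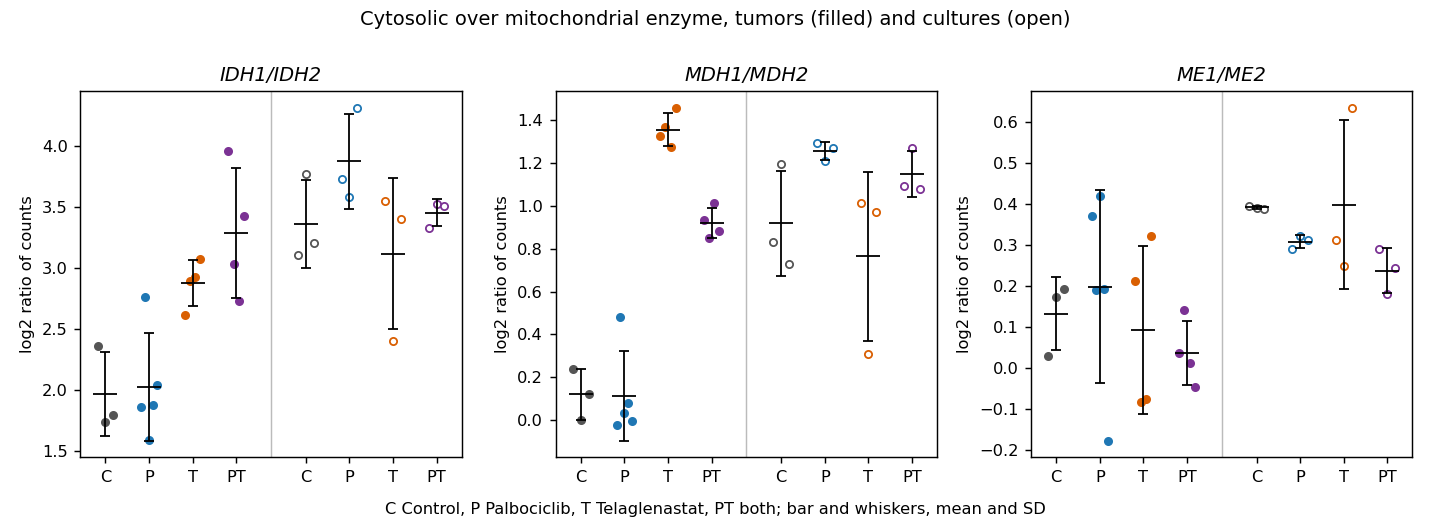
Log2 ratio of the counts of the cytosolic enzyme to those of the mitochondrial enzyme (y axis) in each library, with the mean and SD. Filled points are tumors and open points cultures. The MDH1 to MDH2 ratio lay at 0.85 or above in all tumors given Telaglenastat and at 0.48 or below in the others.

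In the cultures, grown without drug, no member was called in any of the 5 comparisons. All genes showed as little: the share called was 0% for Palbociclib and for Telaglenastat against Control, 0.00715% for the combination, and 0% for the combination against each drug. DESeq2 called 0 members in all 5. An unadjusted p under 0.05 was reached by SLC25A1 for the combination against Control and against Telaglenastat, and by no other member. Of all 13985 genes tested, 895 and 1969 reached it in these comparisons. SLC25A1 was 24.3, 14.8 and 23.7 CPM in Control cultures, 17.1, 11.6 and 10.6 CPM in Palbociclib cultures, 10.9, 42.9 and 15.9 CPM in Telaglenastat cultures and 10.3, 10.1 and 13.03 CPM in combination cultures. Combination cultures lay below Control cultures without overlap (log2 -0.91, SE 0.41, adjusted p = 0.680). Against Telaglenastat the difference was -1.07 (adjusted p = 0.319), and without Telaglenastat culture replicate 1 it was -1.41 (adjusted p = 0.0395). Corrected, both were smaller, at -0.42 (adjusted p = 0.833) and -0.20 (adjusted p = 0.894).

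Of the other members, ACLY and IDH1 had culture groups that did not overlap with Control, and no difference passed. ACLY was 363, 348 and 347 CPM in Control, 331, 314 and 324 CPM in Palbociclib and 237, 322 and 319.8 CPM in combination cultures, both below all Control cultures. IDH2 was 11.8, 13.4 and 6.76 CPM in Palbociclib, 15.2, 24.7 and 14.2 CPM in Telaglenastat and 16.4, 12.96 and 13.7 CPM in combination cultures, and PC was 3.45, 3.20 and 4.24 CPM in Control, 1.17, 3.31 and 1.26 CPM in Palbociclib and 4.07, 2.57 and 1.75 CPM in combination cultures. For IDH2 and PC each of these groups overlapped with Control cultures. IDH1 was 131 to 134 CPM in Control, 137 to 163 CPM in Palbociclib, 132 to 181 CPM in Telaglenastat and 151 to 167 CPM in combination cultures. MDH1 was 249 to 291, 286 to 308, 248 to 388 and 257 to 288 CPM in the same order. ME2 was 120.4 to 140.3, 129 to 143, 119 to 128 and 129 to 151 CPM. For IDH1 the Palbociclib and combination cultures lay above the Control cultures without overlap, whereas those of MDH1 and ME2 overlapped with Control. ACO1 was 78.7 to 96.3, 85.9 to 94.8, 78.8 to 82.9 and 73.7 to 94.4 CPM, and ME1 was 158 to 184, 162 to 175, 145 to 198 and 158 to 171 CPM, again with overlap.

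The Telaglenastat cultures stood apart from each other. The chi-square of their counts per degree of freedom was 33.1 to 41.9 between any 2 of them, against 4.50 to 10.1 in the other culture groups. Their replicate 2 held the highest values of SLC25A1, ACLY, IDH2 and PC of all cultures, with ACLY at 224, 436 and 336 CPM over replicates 1, 2 and 3, and PC at 2.48, 6.12 and 1.13 CPM. Groups of 3 cultures did not overlap for 2, 0 and 3 of 9 members under Palbociclib, Telaglenastat and the combination, beside 18.3%, 9.04% and 21.3% of all genes.

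Without treatment, cultures and tumors differed in 6 of 9 members, beside 45.9% of all genes (22.8% higher, 23.1% lower). On the scaling of this joint fit the groups did not overlap for 9 of 9, beside 59.2%. The CPM printed here were scaled within tumors and within cultures, and on that scale IDH1 and ACLY overlapped. Control cultures were higher for ME1 (1.06, SE 0.13, adjusted p = 4.29e-07), ME2 (0.80, adjusted p = 1.82e-07), ACO1 (0.65, adjusted p = 3.34e-05) and MDH1 (0.63, adjusted p = 4.65e-05). They were lower for IDH2 (-1.29, adjusted p = 2.55e-04) and SLC25A1 (-1.20, adjusted p = 0.00238). ME1 was 158, 184 and 159.7 CPM in Control cultures against 83.9, 89.6 and 93.1 CPM in Control tumors, and IDH2 was 15.4, 9.36 and 14.2 CPM against 26.4, 41.1 and 38.2 CPM. Corrected, SLC25A1 lost its call (-0.27, adjusted p = 0.204) and the other 5 kept theirs. The summed fibroblast list was 4.06 to 5.18 CPM in Control cultures, and its part in these differences was not tested. In whole tumors a lower level may be fewer cells of a type or less RNA per cell, which cannot be told apart. Whether mouse reads were counted on the human members in tumors was not tested.

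The difference of the Telaglenastat effect between tumors and cultures passed for 3 of 9 members, beside 34.1% of all genes. It was -2.26 for SLC25A1, -1.29 for IDH2 and 0.47 for ME2, and corrected none passed. For the combination it passed for 1 member beside 2.91% of all genes, IDH2 at -1.49 (adjusted p = 0.0283), and corrected -1.24 (adjusted p = 0.0197). Without any one of Control tumor 2 or 3, combination tumor 1, Control culture 2 and combination culture 1 or 3 it did not pass (values of -1.55 to -1.30). For Palbociclib it passed for 0 members beside 1.39% (0.356% higher, 1.03% lower). At an unadjusted p under 0.05 there was 1, IDH1, beside 2159 of all 15466 genes. DESeq2 called IDH1, beside 496 genes in all.

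Over the 8 condition means, SLC25A1 had the widest range of the members (2.08 on the log2 scale), followed by PC (1.87) and IDH2 (1.58). Among 13705 genes tested in both tumors and cultures, the patterns closest to SLC25A1 by Pearson's r were those of CD320, SLC16A3 and CNN2 (r = 0.997 for CD320). ZBTB48, PEMT and HSF4 were closest to PC (0.991 to 0.994), and ZC3H10, CDK20 and NGFR to IDH2 (0.980 to 0.983). The points share libraries and depth, and the GC content of the 6 genes closest to SLC25A1 and PC was 56.1% to 62.9% and that of the 3 closest to IDH2 was 48.1%, 55.6% and 62.8%, beside a mean of 49.0% over the genes tested in tumors.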

How the data were processed

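RNA-seq of 16 HCT116 xenograft tumors and 12 cultures derived from such tumors was analysed. The authors isolated poly(A) RNA, made libraries whose second strand was marked with uracil, and sequenced single-end reads. The submitters' processing notes name CASAVA 1.8, STAR and hg38, and the annotation release, the STAR version and the strand setting of the counting are not given in the sources used here. The deposited values are whole-number counts per gene and library, with no normalization. Groups came from the labels. Coordinates, length and GC content were looked up by gene ID in GENCODE 29, built on GRCh38 (57940 IDs matched), whose release need not be the authors'.

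Tumors and cultures were fitted separately, as group means, with edgeR 4.0.16 in R 4.3.3 (filterByExpr with a minimum count of 10, TMM scaling, glmQLFit and glmQLFTest, Benjamini-Hochberg adjustment, threshold 0.05). This left 14848 genes in tumors and 13985 in cultures. All 28 libraries were fitted together (15466 genes) for cultures against tumors and for differences of effects. SEs come from the log2 fold change and the F statistic, and 95% intervals are 1.96 SE on each side. CPM are counts per 1000000 of the scaled library size. Library totals are counts as deposited, and the depth limits only the lowly counted PC and NNT. Log2 CPM used a prior count of 2.

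For corrected values, robust regression (MASS) of each library's log2 CPM deviations on natural splines of GC content and log length, with 5 degrees of freedom each, gave offsets (99.7% of genes had a GC content). The offsets first used did not keep each library's intercept and left the median gene of Telaglenastat tumors at -0.215, with 425 genes higher and 4287 lower. They were therefore changed, after the results had been seen, to keep it, which brings the median to 0.0117, with 955 higher and 1261 lower. Values under the first form are in the closing section. The steps were tested on simulated data.

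Alternatives were DESeq2 1.42.0, DESeq2 size factors, no or a stricter filter, protein-coding genes, a replicate block, the correction with and without the block, leaving out each library, the compared groups alone and all libraries in 1 fit. The correction of the ratios was added after seeing the data. The uncentred form of the correction was the one first used, and was kept as an alternative after the change described above. Same-numbered tumors correlated between -0.128 and 0.0896 in their deviations from group means, and same-numbered cultures between -0.423 and 0.140. Differently numbered tumors spanned -0.110 to 0.109, and such cultures -0.146 to 0.271. The numbers were therefore not used as pairs, though so few libraries per group cannot exclude a pairing.

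The 10 members are all described. Other pathway genes are named where they had the 4 highest or lowest log2 fold changes among those called against Control in tumors, and for the 3 members with the widest range the 3 most alike genes are named. Some results that these rules select are not reported here. The members and lists were chosen with earlier results of these data known.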

Additional observations from a re-analysis of the deposited data

Results flagged for a closer look

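One library stood apart among the member values. ME2 in the combination tumors had 118.6 CPM in replicate 1, and its gap to the nearest of the other 3 tumors was 0.848 of the group's range. In 27 groups of 4 or 5 libraries tested in this way chance flags about 1 in 20.

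For 4 values the effect in tumors differed from that in cultures by the edgeR interaction test. For Telaglenastat the log2 difference of effects was -2.26 for SLC25A1 (adjusted p = 4.59e-04), -1.29 for IDH2 (adjusted p = 0.00754) and 0.47 for ME2 (adjusted p = 0.00773). In the corrected fit these became -0.44 (adjusted p = 0.314), -0.55 (adjusted p = 0.298) and -0.08 (adjusted p = 0.811). The tumors were under drug when taken and the cultures were not, so growth setting and drug presence cannot be told apart. Without Telaglenastat culture replicate 1 the difference also passed for ACLY (-0.59) and PC (-1.73), without replicate 3 for ME1 (0.58), MDH1 (0.52) and PC (-1.95), and without Telaglenastat tumor replicate 2 for ME1 (0.53).

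For the combination the difference was -1.49 for IDH2 (adjusted p = 0.0283, corrected -1.24, adjusted p = 0.0197). It missed the threshold in 6 of 13 fits that left out 1 library: Control tumor replicate 2 or 3, combination tumor replicate 1, Control culture replicate 2, and combination culture replicate 1 or 3. Its value there was -1.55 to -1.30.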

How the results depend on the processing

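Of 2259 recomputed member values, 1983 kept direction and side of the threshold. The GC and length correction changed most. Telaglenastat against Control called 3 members beside 14.9% of all genes (3 also with the block). The combination called 2 against Palbociclib beside 15.4% (1 with the block), and 3 against Telaglenastat beside 15.8% (3 with the block). The Telaglenastat difference between tumors and cultures called 0 beside 4.68% (0 with the block). With the block the correction left 2 between Control cultures and tumors, which is not a comparison of the group means, as given below. ME1 and ME2 turned to -0.0790 and -0.0383 under Telaglenastat (block -0.0858 and -0.0184), and ME2's difference of effects to -0.0818 (block -0.0543). The replicate block alone called 0 for the combination difference of effects. Between Control cultures and tumors IDH2 and SLC25A1 were not called with it. The blocks lie within cultures or within tumors, so that fit set culture block 1 against tumor block 5, which held only Palbociclib tumor 5. It therefore does not measure the difference of the group means, and nothing is concluded from it. The labels give no pairing by replicate number, and in comparisons between tumor groups the block leaves Palbociclib tumor 5 out.

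Without recentring, the correction turned IDH1 (-0.44), ACO1 (-0.31), ME1 (-0.31), ME2 (-0.27) and MDH1 (-0.0162) under Telaglenastat. It also turned ME2 (-0.00022) and MDH1 (-0.21) under the combination and, against Palbociclib, IDH1 (-0.23), ACO1 (-0.23), ME1 (-0.32), ME2 (-0.0176) and MDH1 (-0.19). It called 8 members there, all lower, beside 27.1% lower and 3.33% higher of all genes. For the combination against Telaglenastat it called 3 (1 higher, 2 lower), beside 10.5% higher and 6.19% lower. SLC25A1 and ACLY were lower under Telaglenastat and the combination in every alternative run.

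No filter called 2 members for the combination against Telaglenastat, 1 for each of the combination cultures against Control and Telaglenastat, and 2 for the combination difference of effects. A stricter filter and the compared groups alone each called 1 under Palbociclib, the latter 2 for the combination against Telaglenastat, and 1 fit of all libraries 0. DESeq2 called 1 for the Palbociclib difference, beside 496 genes in all, and protein-coding genes 5 for Telaglenastat. Corrected ratio differences were -0.0261 and 0.62 (IDH1/IDH2, Telaglenastat and combination tumors), -0.22 (combination cultures), -0.19 and -0.15 (ME1/ME2, combination tumors, Palbociclib cultures), and 0.81 and 0.49 (MDH1/MDH2). Per kilobase of longest transcript the medians were 55.9 (IDH1), 74.0 (ACLY), 11.5 (ME2) and 150.6 (MDH1, then first). Leaving out 1 library gave 0 to 1 member for the combination cultures against Telaglenastat, 1 to 2 in the same tumors, 0 to 1 for the combination difference, 3 to 6 for the Telaglenastat difference, 6 to 7 under Telaglenastat and 5 to 6 against Palbociclib. For the fits with the block, other filters, protein-coding genes, the compared groups alone or 1 library left out, no share of all genes is given. Their member counts are therefore not read as results about the members. The cause of these changes was not tested.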
